A study of Mustela putorius furo with 10 samples.

Results

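T cell identity and receptor signalling genes were followed in peripheral blood mononuclear cells (PBMC, the lymphocytes and monocytes of blood) of cold-exposed and control ferrets. They are a list of 52 genes chosen by name, from the chains of the CD3 complex to the transcription factors of the T lineage. On the array, 35 of the 52 could be matched to a target sequence through the RefSeq ferret gene name of its accession, among 26303 genes tested. Of the 26303, 9276 carried a gene name, and the others were target sequences without one, each counted as a gene. Shares of all genes below include both kinds. The ferret's own dye was well above background on all 10 arrays for each of these 35, so that none was lost to the filter on dim probes. No sequence was matched by name to the other 17, which are CD96, ZAP70, LAT, LCP2, TRAT1, UBASH3A, PRKCQ, MALT1, BCL10, RASGRP1, NFATC1, IL2RA, BCL11B, TCF7, RORA, STAT4 and FOXP3, and they were not analysed here.

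Male ferrets of 3 months of age were kept at 22 °C (control, 6 arrays) or at 4 °C for 1 week (cold, 4 arrays). Each array held the PBMC RNA of 1 ferret, out of 7 animals per group. Individual housing is stated with the cold group, and whether it also held for controls is not clear. If it did not, low temperature and single housing cannot be told apart. The RNA of the ferret carried the green dye Cy3, and a pool of RNA from PBMC and other tissues, the same for every array, carried the red dye Cy5. Values below are log2 ratios of Cy3 to Cy5 unless Cy3 alone is named, normalized within each array so that 0 is the typical ratio of spots of the same brightness and not equal signal, and a change is the cold mean less the control mean on that scale. The scanner software marked 50.4 to 63.5% of spots per array as well above background in Cy3 and 27.0 to 64.0% in Cy5, with a median Cy5 intensity of 44 to 80 on control arrays and of 48 to 152 on cold arrays.

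T cells recognise antigen through a receptor whose variable chains do not signal by themselves. The CD3 chains carry the signal into the cell, where the kinase LCK, held at the membrane by the co-receptors CD4 and CD8, phosphorylates their tails and starts a cascade of kinases, adaptors and calcium-dependent factors such as the NFAT proteins. Co-stimulatory and inhibitory receptors tune that signal, the cytokine receptors of the common gamma chain family keep T cells alive, and GATA3, LEF1 and TBX21 set T cell identity.

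In cold-exposed ferrets, 28 of the 35 T cell genes had a lower mean than in controls and 7 a higher one. A lower mean was found for 52% of all genes tested. Each of the 7 with a higher mean (CD3D, GRAP2, TXK, PTPN22, CTLA4, TIGIT and TBX21) had a lower one under at least 1 other way of processing, while 22 of the 28 kept their lower mean under every alternative run. Some alternatives lowered genes in general, so small positive changes could turn more readily than negative ones. Centring on the array median put the median change of all genes at -0.43, and GRAP2 and TBX21 turned only there. The median change of the 35 genes was -0.26, against -0.01 for all genes, and single genes ran from -1.06 (IL7R) to 0.45 (GRAP2). At the unadjusted p of 0.01 used in the study's methods, 4 of the 35 were lower (LCK, IL2RG, GATA3 and SKAP1) and 0 higher in limma's test, where 3.43% of all genes were lower and 5.21% higher. At 0.05, 16 were lower and 1, GRAP2, was higher, beside 12.5% and 12.2% of all genes. With the methods' t-test, 3 genes were lower at 0.01, SKAP1 not among them, and 12 at 0.05, beside 2.53% and 10.3% of all genes. After Benjamini-Hochberg adjustment over all genes in limma, 0 of the 35 genes passed 0.05, as did 0% of all genes, and the lowest adjusted p of a T cell gene was 0.0736. The 4 cold arrays were all under the 6 control arrays for 3 of the 35 genes (LCK, IL2RG and GATA3) and all over them for 0, where 2.15% of all genes were under and 3.07% over. Without cold replicate 3 the median change was -0.16. In limma's test 9 genes in place of 16 were then lower at an unadjusted p of 0.05, beside 8.52% of all genes. In blood samples, fewer T cells and less RNA per T cell cannot be told apart.

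**Figure D1:**
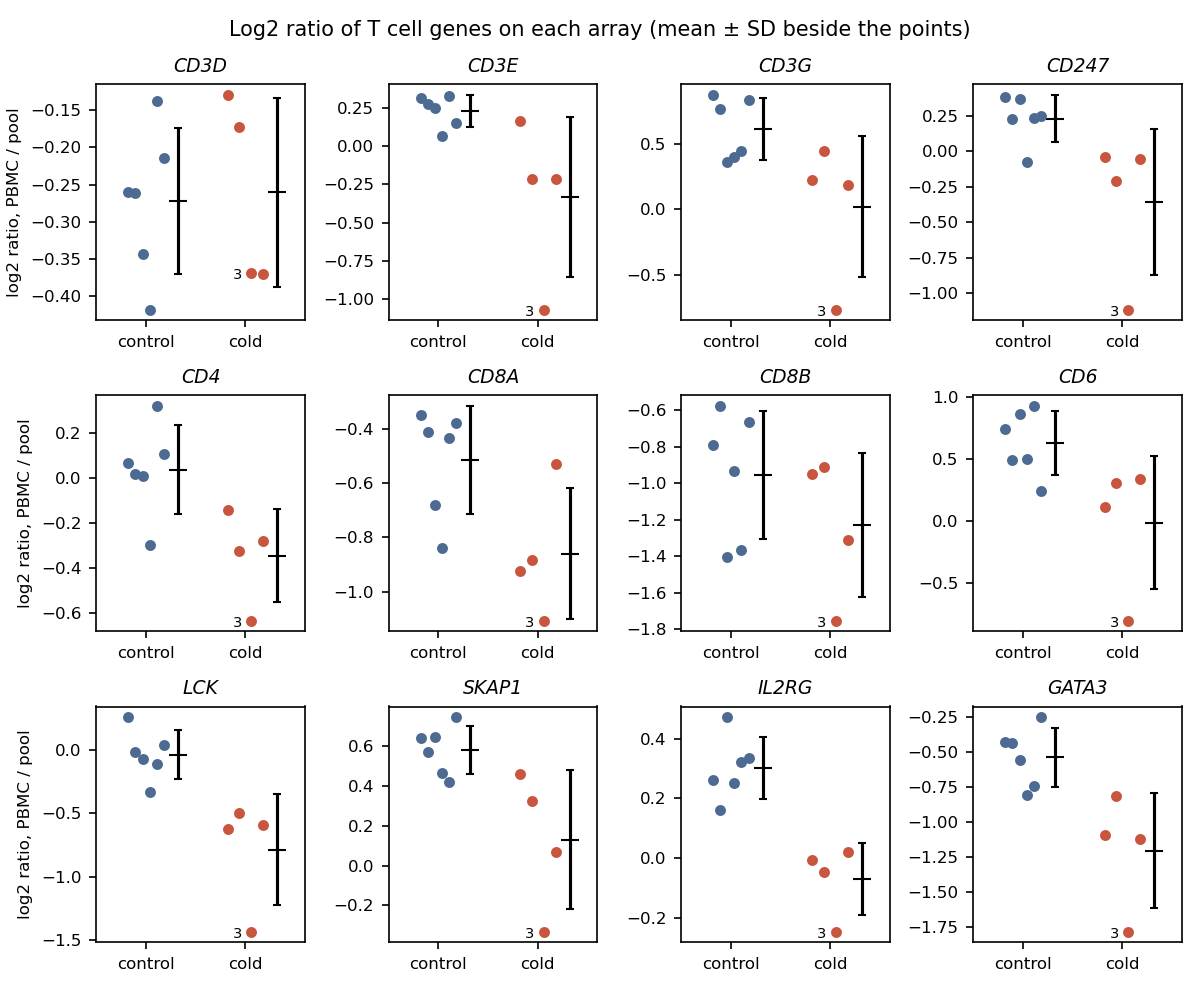
Log2 ratio of PBMC to the pool on each array for 12 T cell genes, with control arrays in blue, cold arrays in red and cold replicate 3 marked "3". Bars beside the points are the mean ± SD, each panel has a vertical axis of its own that does not start at 0, and the 2 groups do not overlap for LCK, IL2RG and GATA3.

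Among the antigen receptor chains, 3 of the 4 CD3 genes were lower in cold at the unadjusted p of 0.05, with changes from -0.59 to -0.56. CD3E read from 0.07 to 0.33 on control arrays (median 0.26) and 0.16, -0.21, -1.07 and -0.21 on cold arrays 1 to 4. The change was -0.56 (SE 0.19, adjusted p = 0.123), with cold replicate 3 far below the others and cold replicate 1 inside the control range. CD3G read from 0.36 to 0.88 on control arrays (median 0.61) and 0.23, 0.45, -0.77 and 0.18 on cold arrays. Its change was -0.59 (SE 0.22, adjusted p = 0.138), and its 2 target sequences gave -0.58 and -0.61. CD247, the zeta chain with the longest signalling tail, read from -0.07 to 0.38 on control arrays (median 0.24) and -0.04, -0.21, -1.12 and -0.06 on cold arrays. The change of CD247 was -0.59 (SE 0.20, adjusted p = 0.122), and control replicate 4 reached into the cold range. Without cold replicate 3 the changes were -0.32 for CD3E, -0.33 for CD3G and -0.33 for CD247.

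CD3D stood apart in the ratio. It read from -0.42 to -0.14 on control arrays (median -0.26) and -0.13, -0.17, -0.37 and -0.37 on cold arrays, with a change of 0.01 (SE 0.08, adjusted p = 0.944). In Cy3 alone, quantile normalized between arrays, it lay from 8.61 to 9.11 on control arrays and at 8.47, 8.40, 8.27 and 8.39 on cold arrays, without overlap, with a change of -0.44 (SE 0.11, adjusted p = 0.0582). Of its 3 kept probes, 1 had Cy5 well above background on all 10 arrays, and its Cy5 signal alone differed by -0.19 between the arrays of the groups, although the pool was the same. Its sign in the ratio turned negative under 4 other ways of processing and with the Cy5 brightness as a covariate, so no direction is given for CD3D.

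The 3 co-receptors all had lower means. CD4, which binds MHC class II on the helper lineage, read from -0.30 to 0.32 on control arrays (median 0.04) and -0.14, -0.33, -0.64 and -0.28 on cold arrays, a change of -0.38 (SE 0.13, adjusted p = 0.118). CD8A, a chain of the cytotoxic lineage's co-receptor for MHC class I, read from -0.84 to -0.35 (median -0.42) and -0.92, -0.88, -1.11 and -0.53, a change of -0.35 (SE 0.13, adjusted p = 0.148). Cold replicates 2 and 3 lay below all controls for CD4, and cold replicates 1, 2 and 3 for CD8A, while control replicate 4 was the lowest control for both. CD8B, its partner chain, read from -1.40 to -0.58 on control arrays (median -0.86) and -0.95, -0.91, -1.75 and -1.31 on cold arrays, and the change of -0.27 (SE 0.21, adjusted p = 0.443) was within the spread between arrays. Without cold replicate 3 the changes were -0.29 for CD4, -0.26 for CD8A and -0.10 for CD8B. The difference between the CD4 and CD8 changes was not tested.

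Of the adhesion and surface regulators, CD6 differed most. This scavenger receptor of T cells, which tunes receptor signalling at the contact with other cells, read from 0.25 to 0.92 on control arrays (median 0.62) and 0.11, 0.30, -0.80 and 0.34 on cold arrays, a change of -0.64 (SE 0.22, adjusted p = 0.127). Cold replicate 3 was again the lowest, and the other 3 cold arrays lay near the lowest control. Without cold replicate 3 the change of CD6 was -0.38. CD2, which binds CD58 on antigen-presenting cells, changed by -0.44 (SE 0.18, adjusted p = 0.164), and all 4 of its probes were lower. Its change was -0.21 without cold replicate 3. CD5, an inhibitor of receptor signalling, changed by -0.01 (SE 0.18, adjusted p = 0.976), and its cold arrays 0.78, 0.42, -0.12 and 1.00 lay on both sides of the control range of 0.39 to 0.71.

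The clearest difference in the cascade itself was that of LCK, the kinase that phosphorylates the CD3 tails. LCK read from -0.33 to 0.25 on control arrays (median -0.05) and -0.63, -0.50, -1.43 and -0.59 on cold arrays. All 4 cold arrays lay below all 6 control arrays, also with cold replicate 3, the lowest, set aside. The change was -0.75 (SE 0.18, unadjusted p = 0.0015 and adjusted p = 0.0736 in limma, exact two-sided permutation p = 0.00476, the smallest that 210 splits of 10 arrays can give), so that the cold mean was 59.7% of the control mean on the linear scale. Its 4 probes gave changes between -0.80 and -0.67. Without cold replicate 3 the change was -0.53, and with the Cy5 brightness of the array as a covariate it was -0.59 and no longer passed 0.01, nor did it with centring on the array median (-1.83). In Cy3 alone the change of LCK was -0.68 (SE 0.20, adjusted p = 0.0817) and the groups overlapped, with cold replicate 1 at 14.08 and control replicate 4 at 14.05, and its Cy5 signal differed by 0.17 although the pool was the same.

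SKAP1, an adaptor that links the receptor to integrin adhesion, read from 0.42 to 0.75 on control arrays (median 0.61) and 0.46, 0.33, -0.33 and 0.07 on cold arrays. Cold replicate 1 lay inside the control range and the other 3 cold arrays below it. The change was -0.45 (SE 0.14, unadjusted p = 0.0086 and adjusted p = 0.11 in limma, exact permutation p = 0.00952). SKAP1 did not pass 0.01 with the methods' t-test, the replicate number as a block, Cy5 brightness as a covariate, the filter on Cy5 or centring on the array median. It did not pass in 7 of the 10 fits that left out 1 array either, and its change was -0.30 without cold replicate 3.

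GRAP2, an adaptor that couples LAT to SLP-76, was the T cell gene with the highest change. It read from 0.21 to 0.74 on control arrays (median 0.47) and 0.91, 0.42, 1.24 and 1.11 on cold arrays, a change of 0.45 (SE 0.17, adjusted p = 0.143), and all 4 of its probes were higher. Cold replicates 1, 3 and 4 lay above all control arrays, but the change was -0.08 where ratios were only centred on the median of each array, a scaling that moved the median of all genes to -0.43.

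The other 7 kinases and adaptors had changes between -0.49 and 0.32, and FYN, the second SRC family kinase of the receptor, was lower at the unadjusted p of 0.05. FYN read from 0.65 to 1.01 on control arrays and 0.62, 0.69, 0.38 and 0.72 on cold arrays, a change of -0.22 (SE 0.09, adjusted p = 0.177), and its 6 target sequences gave -0.30 to -0.19. THEMIS (-0.49, SE 0.23), which T cells need during development in the thymus, and the adaptors SLA2 (-0.26, SE 0.13) and SH2D1A (-0.23, SE 0.13) had lower means that did not pass that threshold. PTPN22, a phosphatase that restrains LCK, had a higher mean by 0.32 (SE 0.16, adjusted p = 0.23), which became -0.09 in Cy3 alone scaled on the 75th percentile and -0.03 with Cy5 brightness as a covariate. The exchange factor VAV1 (-0.08, SE 0.14) and the TEC family kinase TXK (0.06, SE 0.18) differed by less than the spread between arrays, and both turned sign under other processing.

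Downstream, 2 of the 7 listed genes were matched, both of the NFAT family that calcineurin sends to the nucleus. NFATC3 read from -0.02 to 0.23 on control arrays (median 0.11) and 0.06, -0.07, -0.21 and -0.08 on cold arrays, a change of -0.18 (SE 0.08, adjusted p = 0.199). Its 2 target sequences did not give the same value, one -0.31 (SE 0.10) and the other 0.00 (SE 0.08), and the difference between them was not tested. NFATC2 changed by -0.10 (SE 0.15, adjusted p = 0.706), with 15 of its 28 probes lower and 13 higher.

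**Figure D2:**
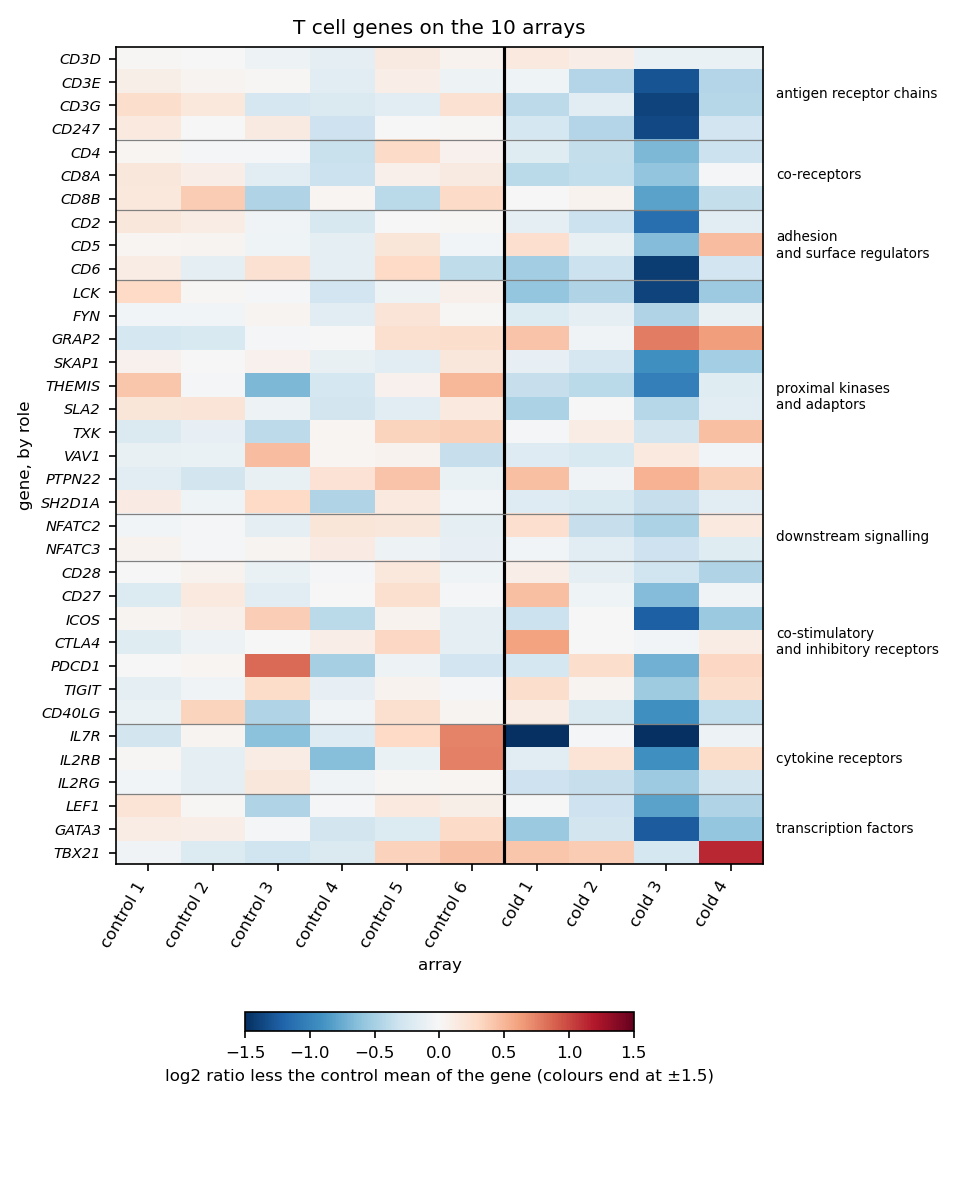
Log2 ratio of each of the 35 T cell genes on each of the 10 arrays, less the control mean of that gene, in rows grouped by role (blue is below the control mean, red above). Most blue is in the column of cold replicate 3, where 27 of the 35 genes lay below all 6 control arrays.

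The 7 co-stimulatory and inhibitory receptors were all matched, and 1 of them, ICOS, was lower at the unadjusted p of 0.05. ICOS, which is induced on activated T cells, read from -0.41 to 0.36 on control arrays (median 0.04) and -0.33, -0.01, -1.23 and -0.56 on cold arrays. The change was -0.53 (SE 0.21, adjusted p = 0.166), with cold replicates 1 and 2 inside the control range. CTLA4, the inhibitory competitor of CD28, had the highest change of the 7, 0.17 (SE 0.14, adjusted p = 0.479), with 0.16 to 0.65 on control arrays and 0.94, 0.34, 0.30 and 0.46 on cold arrays, and it turned to -0.10 in Cy3 alone. CD40LG, the helper signal to B cells, had a change of -0.35 (SE 0.20) and CD28 of -0.20 (SE 0.11), neither past 0.05. CD27 (-0.08), PDCD1 (-0.10) and TIGIT (0.01) differed by less than their standard errors, and PDCD1 and TIGIT turned sign under at least 1 other way of processing.

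Among the cytokine receptors, IL2RG gave the smallest p of the 35 genes. It codes for the common gamma chain that the receptors of IL2, IL7 and related cytokines share. IL2RG read from 0.16 to 0.47 on control arrays (median 0.29) and -0.01, -0.05, -0.25 and 0.02 on cold arrays. The groups did not overlap and were closer within themselves than for LCK, with an SD of 0.10 (n = 6) in control and 0.12 (n = 4) in cold. The change was -0.37 (SE 0.08, unadjusted p = 0.00105 and adjusted p = 0.0736 in limma, exact permutation p = 0.00476), a cold mean of 77.3% of the control mean. It was -0.31 without cold replicate 3 and -0.38 with Cy5 brightness as a covariate, and it no longer passed 0.01 with the deposited table (-0.87), with the replicate number as a block (-0.36) or with centring on the array median (-1.48). In Cy3 alone, quantile normalized, the change of IL2RG was -0.72 (SE 0.17, adjusted p = 0.0489 in limma), the one T cell gene past the adjusted threshold there, and with Cy3 scaled on the 75th percentile 0 T cell genes passed it, as did 0% of all genes, while 16 of the 35 were lower at an unadjusted p of 0.01, beside 8.11% of all genes. The Cy5 signal of IL2RG differed by -0.20 between the arrays of the groups, although the pool was the same.

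IL7R, the receptor chain by which resting T cells take up the survival signal of IL7, had the largest change and also the largest spread. It read from 0.03 to 1.40 on control arrays (median 0.58) and -1.08, 0.64, -1.77 and 0.58 on cold arrays, a change of -1.06 (SE 0.46, adjusted p = 0.186). Cold replicates 2 and 4 lay near the control median. On cold replicates 1 and 3, 1 of the 4 probes read -4.65 and -4.48, and between -0.43 and 1.49 on the other 8 arrays. The other 3 probes read -0.058, 0.34 and 0.043 on cold replicate 1. On cold replicate 3 they read -1.03, -0.61 and -0.96, so that all 4 probes were low there. In Cy3 alone that probe read 7.97 and 8.25 on those arrays and 12.4 to 14.6 on the others. Those 3 probes changed by -0.66, -0.45 and -0.41, and without the deviating probe, a choice made after seeing the values, IL7R changed by -0.51 (SE 0.32) and did not pass 0.05. IL2RB, a chain shared by the IL2 and IL15 receptors, changed by -0.15 (SE 0.27, adjusted p = 0.772), within the spread between arrays.

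**Figure D3:**
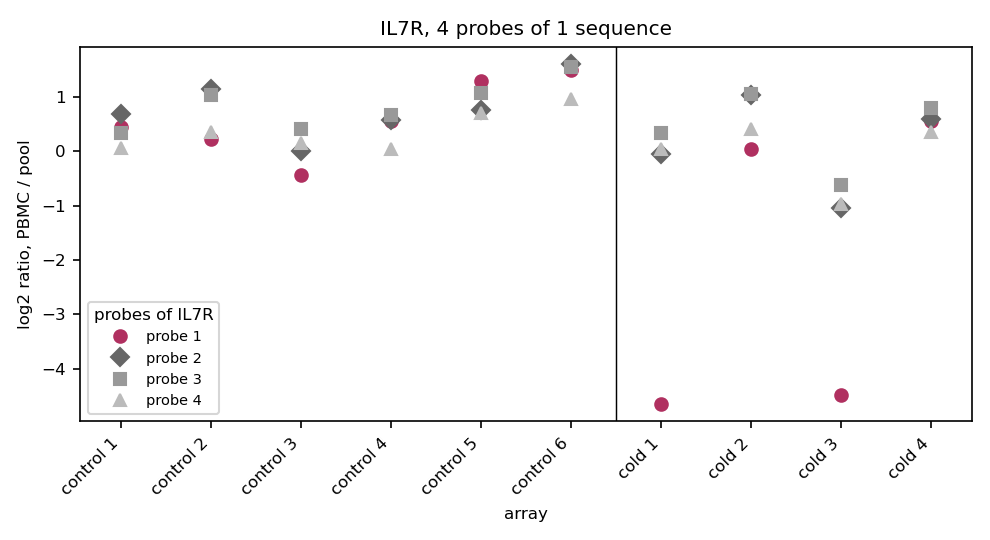
Log2 ratio of PBMC to the pool on each array for the 4 probes of IL7R, with control arrays left of the line. Probe 1 read -4.65 on cold replicate 1 and -4.48 on cold replicate 3, while probes 2 to 4 stayed between -1.03 and 1.60 on all arrays.

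Of the 3 transcription factors matched, GATA3, a factor of T cell development and of the T helper 2 fate, was lower without overlap. GATA3 read from -0.81 to -0.25 on control arrays (median -0.50) and -1.10, -0.82, -1.78 and -1.12 on cold arrays, so that cold replicate 2 lay just under the lowest control. The change was -0.67 (SE 0.18, unadjusted p = 0.0029 and adjusted p = 0.0848 in limma, exact permutation p = 0.00476), a cold mean of 63.0% of the control mean. Its 3 target sequences gave -0.71, -0.68 and -0.62, and all 12 probes were lower. It was -0.47 without cold replicate 3 and -0.43 with Cy5 brightness as a covariate, where it passed neither 0.01 nor 0.05, and with centring on the array median (-1.65) it did not pass 0.01.

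LEF1, a factor of the WNT pathway and of resting T cells, read from 0.09 to 0.75 on control arrays (median 0.60) and 0.55, 0.23, -0.26 and 0.09 on cold arrays, a change of -0.39 (SE 0.16, adjusted p = 0.175). Its 4 target sequences fell into pairs, with -0.57 and -0.59 in one and -0.22 and -0.18 in the other, and the difference between them was not tested. TBX21, the factor of the T helper 1 fate that natural killer (NK) cells also express, had a higher mean by 0.41 (SE 0.24, adjusted p = 0.31). It read from 0.46 to 1.21 on control arrays and 1.18, 1.15, 0.50 and 1.90 on cold arrays, of which cold replicate 4 alone lay above the control range, and the change became -0.32 under centring on the array median. With 1 array left out, TBX21 ran from 0.18 (without cold replicate 4) to 0.64 (without cold replicate 3).

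The lower values were not spread evenly over the cold arrays. Cold replicate 3 was the lowest cold array for 29 of the 35 genes, and 27 of them (77.1%) lay there below all 6 control arrays, against 26.2% of all genes. The same count was 9 of 35 (25.7%, all genes 28.0%) on cold replicate 1, 12 of 35 (34.3%, all genes 12.5%) on cold replicate 2 and 10 of 35 (28.6%, all genes 19.4%) on cold replicate 4. Among controls, replicate 4 held the lowest control value for 15 of the 35 genes (42.9%, all genes 17.9%). The mean of the 35 genes, less its control mean, lay between -0.15 and 0.09 on control arrays and at -0.12, -0.15, -0.69 and -0.08 on cold arrays, so that the other 3 cold arrays were inside the control range. Without cold replicate 3, the median change was -0.16, LCK, IL2RG and GATA3 were still lower at an unadjusted limma p of 0.01 (1.81% of all genes), and 9 genes in place of 16 were lower at 0.05, beside 8.52% of all genes. CD8A, CD2, FYN, NFATC3, ICOS, IL7R and LEF1 no longer passed 0.05 then, with changes from -0.61 to -0.13, nor did GRAP2 (0.34). The count of T cell genes higher at 0.05 was still 1, beside 8.6% of all genes, and TBX21 changed by 0.64. CD5 (0.20), CD27 (0.11), PDCD1 (0.10), IL2RB (0.10) and NFATC2 (0.021) then had positive changes. The median SD of a T cell gene was 0.37 over cold arrays and 0.20 over control arrays, and that of all genes 0.20 and 0.16.

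The dye of the ferret's own RNA gave more calls than the ratio. In Cy3 alone, quantile normalized, 16 of the 35 genes were lower at an unadjusted p of 0.01 and 0 higher, where 4.36% of all genes were lower and 5.48% higher, and the median change was -0.55 against -0.04 for all genes. The cold arrays were under all control arrays for 8 of the 35 (CD3D, CD3G, CD247, CD6, SKAP1, NFATC2, IL2RG and GATA3), beside 3.46% of all genes. Past the adjusted threshold was 1 of the 35, lower, beside 0.924% of all genes. CD27, which changed by -0.08 in the ratio, changed by -0.89 (SE 0.25, adjusted p = 0.0718) in Cy3 alone, and CD40LG by -0.86 (SE 0.23, adjusted p = 0.0683). In the Cy5 signal alone, which measured the same pool on every array, the median change of the 35 genes was -0.02 and 1 of them, CD40LG, differed at an unadjusted p of 0.01 (-0.18), beside 1.79% of all genes. For 6 of the 35 (PTPN22, CTLA4, TXK, CD27, SLA2 and TIGIT) no kept probe had Cy5 well above background on all 10 arrays, so that their ratios rest on a dim reference.

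**Figure D4:**
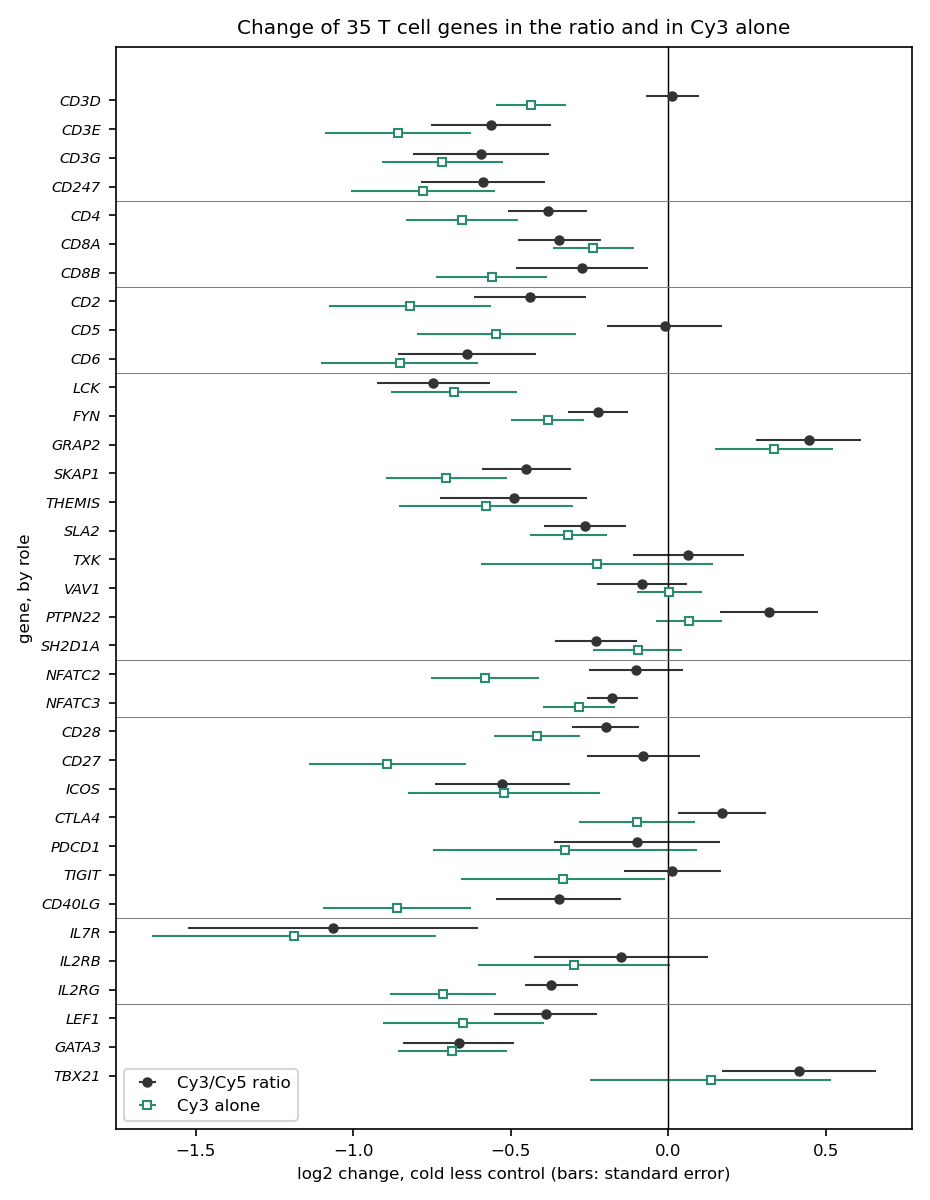
Change of each of the 35 T cell genes (cold mean less control mean, log2, with standard errors as bars) in the Cy3/Cy5 ratio (filled circles) and in Cy3 alone, quantile normalized (open squares), with lines between the role groups. In the ratio 28 genes lie left of 0, and in Cy3 alone 31 do, as do 57.1% of all genes.

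Against the typical ratio of an array, the T cell genes stood higher in control PBMC than genes in general. The control mean was above 0 for 25 of the 35 (71.4%), against 54.4% of all genes, and the median ratio was 0.34 against 0.03. Those under 0 were CD3D, CD8A, CD8B, LCK, THEMIS, SLA2, SH2D1A, CD28, ICOS and GATA3, and the tissues other than PBMC in the pool were not resolved here. A ratio of this kind compares each gene with its own level in the pool and not with other genes.

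Other genes of T cell receptor signalling lay on both sides of 0. Of 49 further pathway genes, most of which are also used outside T cells, 37 were matched and 34 tested. Of the 34, 25 had a higher mean, beside 48% of all genes, and 9 a lower one. The median change was 0.04, with a range from -0.85 to 0.90. In Cy3 alone, quantile normalized, the median change was -0.04, beside -0.04 for all genes. At an unadjusted limma p of 0.01 in the ratio, 1 was higher and 2 were lower, which is near the share of all genes (5.21% and 3.43%). CD58, the ligand of CD2, was higher by 0.39 (SE 0.12, adjusted p = 0.104). The kinase MAP3K7, on the path to NF-kappaB, was lower (change -0.34, SE 0.08, adjusted p = 0.0736) and the phosphatase PTPN11 was lower as well (change -0.23, SE 0.07, adjusted p = 0.11), both without overlap between the groups in the ratio. In Cy3 alone the groups overlapped for both, with changes of -0.17 (SE 0.16, adjusted p = 0.513) for MAP3K7 and -0.046 (SE 0.09, adjusted p = 0.776) for PTPN11, and their Cy5 signals differed by 0.15 and 0.12. No kept probe of MAP3K7 had Cy5 well above background on all 10 arrays.

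Markers of other blood cells moved on the same arrays, and their part in the T cell values was not tested. Calls below are at an unadjusted limma p of 0.01, which 5.21% of all genes passed as higher and 3.43% as lower, and 0 of these markers passed the adjusted threshold in the ratio (lowest adjusted p = 0.0576). Of 10 monocyte markers 9 were tested, with 8 higher means and 1 lower (CD163, -0.62), 3 of them called higher (VCAN 1.29, CD86 0.73 and CD14 0.66), and a median change of 0.49. In Cy3 alone, quantile normalized, 5 monocyte markers were called higher, among them CD163 with the opposite sign (0.49), and CD86 also passed the adjusted threshold (0.68, adjusted p = 0.0428). The monocyte mean lay from 0.22 to 0.77 on cold arrays, all above the controls (-0.26 to 0.21), and was highest on cold replicate 3. Of 10 neutrophil markers 4 were tested, with LCN2 called higher (0.67) and a median of 0.54, and the mean lay from 0.24 to 0.73 on cold arrays and from -0.30 to 0.34 on control arrays. Of 8 platelet markers 5 were tested, with GP9, GP1BB and TREML1 called higher in the ratio and 0 called in Cy3 alone by the same test (2, GP9 and TREML1, had an unadjusted p under 0.05), and a median of 0.87. Their mean lay from 0.30 to 1.44 on cold arrays, highest on cold replicate 3, and from -0.74 to 0.84 on control arrays, so the groups overlapped. Of 7 erythroid markers 4 were tested, with HBM, a haemoglobin subunit, called lower (change -2.56, and in Cy3 alone -3.22 with adjusted p = 0.0369) and a median of -0.74, and their mean lay from -1.42 to -0.63 on cold arrays and from -0.40 to 0.55 on control arrays. The 8 B cell markers tested of 10 and the 4 NK and cytotoxic markers tested of 10 had 0 genes past an unadjusted limma p of 0.01 or 0.05, with medians of -0.09 and 0.09. The B cell mean lay from -0.29 to 0.06 on cold arrays, inside the -0.89 to 0.69 of control arrays. For NK and cytotoxic markers it lay from -0.44 to 0.47 on cold and from -0.32 to 0.43 on control arrays. In Cy3 alone the medians of these lists were -0.57 for B cells, close to the -0.55 of the T cell genes, and -0.10 for NK and cytotoxic cells, again with 0 genes past an unadjusted limma p of 0.01. Every marker list was measured only in part, since MS4A1, NCR1 and PF4, among others, were not matched, and PAX5, OLFM4 and KLF1 had no probe past the filter.

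**Figure D5:**
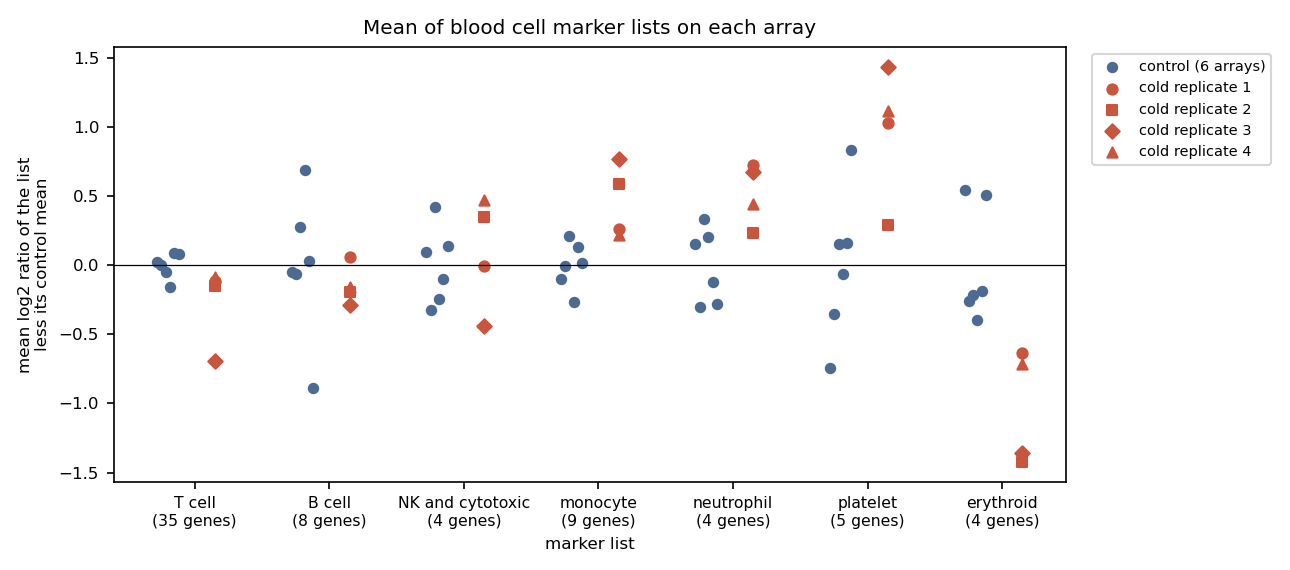
Mean log2 ratio of each marker list on each array, less the control mean of the list, for the 35 T cell genes and 6 lists of other blood cells (control arrays in blue, the 4 cold arrays in red, each with its own symbol). Cold replicate 3 has the lowest T cell mean (-0.69) and the highest monocyte mean (0.77) of the 10 arrays.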

How the data were processed

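PBMC RNA of 6 control and 4 cold-exposed ferrets was hybridised to 10 custom 2-colour Agilent arrays, 1 per animal, on 10 slides scanned on 1 day. The authors deposited the spot intensity of both channels as written by Agilent Feature Extraction 10.7.3.1 (median brightness, local background, processed signal and flags), and 1 table with log2 values, a row for each target sequence. The centring of that table, with column medians of 7.87 to 8.78, is not given in the sources used here, and it served only as an alternative (per array, its deviations from gene means correlated with those of the ratios at 0.36 to 0.84).

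Background was corrected by normexp in limma 3.58.1 (R 4.3.3), with an offset of 50, on median intensities, since the files used here hold no mean intensity. Log2 ratios of Cy3 to Cy5 were normalized within arrays by loess (span 0.3, 4 iterations) and averaged over spots and then over a gene's probes. Probes stayed in if, on 4 or more arrays, a share of 0.5 or more of their spots had Cy3 well above background, which held for 111051 of 181312 probes. Of 45328 target sequences, 21104 were named as 12918 genes through the RefSeq table of assembly ASM1176430v1.1, and 24224 kept their accession. No probe sequence or coordinate was used here.

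The comparison used lmFit and eBayes of limma, adjusted by Benjamini-Hochberg over 26303 genes, and single genes also by an exact two-sided permutation test over 210 splits. On simulated data, in which 200 of 26303 genes differed by 2 on the log2 scale, 95.5% were recovered and 4.5% of the calls were false. The simulated noise was independent between genes, and the T cell genes changed by less, from -1.06 to 0.45. Those rates therefore do not apply to changes of that size. The precision is limited by the number of arrays. The 52 genes, their roles and the pathway and marker lists, which were written from general knowledge, were chosen with earlier results of these data known. Values by array are given for the CD3 chains and co-receptors, for genes at an unadjusted p under 0.01 or without overlap, and for the extremes of each role; values of CD2, CD5, CD27, CD28, CD40LG, FYN, IL2RB, LEF1, NFATC2, PDCD1, PTPN22, SH2D1A, SLA2, THEMIS, TIGIT, TXK and VAV1 were added after they were seen. The alternatives were the scanner software's processed signals, no background subtraction, centring on the array median, Cy3 alone (quantile or 75th percentile), the deposited table, the filter dropped or required on all 10 arrays, medians in place of means over probes, single target sequences, array weights, the methods' t-test, blocks for slide position or replicate number, and each array left out in turn. Added after seeing the data were Cy5 brightness as a covariate, a filter on Cy5, and IL7R without 1 probe.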

Additional observations from a re-analysis of the deposited data

Results flagged for a closer look

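Of 70 groups of arrays (35 genes in 2 groups), 4 held an array far from the others by Dixon's criterion, which chance alone meets in about 1 in 20 groups. CD247 had control replicate 4 at -0.074, with the other control arrays at 0.23 to 0.38. CD247 also had cold replicate 3 at -1.12, with the other cold arrays at -0.21 to -0.04. LCK had cold replicate 3 at -1.43, with the other cold arrays at -0.63 to -0.50, and all 4 of these were below every control array. LEF1 had control replicate 3 at 0.092, with the other control arrays at 0.53 to 0.75.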

How the results depend on the processing

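Under the alternatives, 22 of the 35 T cell genes kept the sign of their change throughout and 13 did not. Of the comparisons of a single gene with its main value, 768 kept direction and side of the unadjusted threshold of 0.01, 64 passed it in addition, 19 no longer passed it and 54 changed sign.

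The count of 4 genes lower at 0.01 became 7 with the scanner software's processed signals (3.29% of all genes), with no background subtraction (3.63%), with ratios centred on the array median (3.6%) and with the deposited table (2.24%). It was 16 with Cy3 alone by quantile (4.36%) or by 75th percentile (8.11%), 2 with the replicate number as a block (4.23%) and 1, IL2RG, with Cy5 brightness as a covariate (0.787%). Centring left out all 4 of LCK, IL2RG, GATA3 and SKAP1, the deposited table IL2RG, and the replicate block IL2RG and SKAP1. It ran from 3 to 9 when 1 array was left out, with 7 once control replicate 4 was left out (3.63%) and 9 without cold replicate 1 (2%). The count of 16 genes lower at 0.05 became 27 with centring on the median (26.4% of all genes), 10 with the replicate block (12.8%) and 7 with Cy5 brightness as a covariate (3.6%). It ran from 9 (without cold replicate 3, 8.52%) to 16 (without cold replicate 2, 16.3%) when 1 array was left out. The count of 0 genes higher at 0.01 became 1 (GRAP2) with the replicate block (1347 of 26303 genes) and ran from 0 to 1 (without cold replicate 2, 1854 of 26303 genes). The count of 1 gene higher at 0.05 became 3 with array weights (12.9% of all genes) and with the replicate block (11.4%). It became 0 with processed signals (7.02% of all genes), centring on the median (3.35%), the deposited table (8.68%), Cy5 brightness as a covariate (6.81%) and the filter on Cy5 (9.76%). The count was also 0 with Cy3 alone by 75th percentile (8%) and by quantile (6527 of 26303 genes in either direction). When 1 array was left out it ran from 0 (without cold replicate 4, 12.1%) to 2 (without control replicate 4, 11.2%, among others). The count of 0 genes past the adjusted threshold became 1 in Cy3 alone, quantile normalized, and ran from 0 to 3 (without cold replicate 2, where 4.84% of all genes passed). The replicate numbers did not pair the samples, with correlations of same-numbered arrays of -0.30, 0.54, 0.10 and -0.19.

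The median change of -0.26 became -0.53 with processed signals, -1.22 with centring on the median, -0.55 and -0.64 with Cy3 alone by quantile and by 75th percentile, and -0.72 with the deposited table, and ran from -0.34 to -0.16 when 1 array was left out. Centring on the median moved the median of all genes to -0.43 and the 75th percentile in Cy3 to -0.18. The median in Cy5 alone ran from -0.03 to 0.00.

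Signs turned as follows, and the cause was not tested. With processed signals CD3D changed by -0.43, TXK by -0.41 and TIGIT by -0.49. With no background subtraction CD3D changed by -0.033 and TIGIT by -0.063, and with the median over probes CD3D by -0.091. With centring on the median CD3D changed by -0.47, GRAP2 by -0.084, TXK by -0.36, TIGIT by -0.36 and TBX21 by -0.32. In Cy3 alone by quantile CD3D changed by -0.44, TXK by -0.23, VAV1 by 0.0032, CTLA4 by -0.10 and TIGIT by -0.33, and by 75th percentile CD3D by -0.89, TXK by -0.34, VAV1 by 0.054, PTPN22 by -0.086, CTLA4 by -0.50 and TIGIT by -0.63. With the deposited table TXK changed by -0.0020 and TIGIT by -0.015. With array weights CD5 changed by 0.047, and with the replicate block CD5 by 0.022 and IL2RB by 0.014. With Cy5 brightness as a covariate CD3D changed by -0.0071, TXK by -0.0089, PTPN22 by -0.034, CTLA4 by -0.12, PDCD1 by 0.21, TIGIT by -0.027 and IL2RB by 0.11. When 1 array was left out, CD3D ran from -0.031 to 0.049, CD5 from -0.17 to 0.20, TXK from -0.065 to 0.18, VAV1 from -0.16 to 0.011, NFATC2 from -0.22 to 0.021, CD27 from -0.26 to 0.11, PDCD1 from -0.24 to 0.10, TIGIT from -0.072 to 0.19 and IL2RB from -0.29 to 0.10.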
